A study of Homo sapiens with 4 samples.

Results

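The genes of the ATF4 amino acid stress response were followed across 4 Affymetrix arrays, with 1 array for each of 4 modified human colorectal cancer cell lines. The 40 genes were listed by symbol, with no value used as a criterion but with earlier results of these data known, from transcription factors, feedback proteins, amino acid transporters, biosynthetic enzymes and tRNA synthetases that ATF4 is known to control. Of the 19775 genes read on the array, 39 belonged to this set; GPT2 had no probe set of its own. VLDLR stayed under the level taken as measured on all 4 arrays, so 38 genes entered the counts. The colorectal carcinoma line HCT116 gave the pair HCT116-Vec and HCT116-CDX1, and the mucinous colon adenocarcinoma line LS174T gave the pair LS174T-siVec and LS174T-siCDX1. From these names, each pair was taken to hold a vector control, beside raised CDX1 in HCT116 and lowered CDX1 in LS174T. CDX1 is an intestinal homeobox transcription factor. The labels used here did not state the constructs, the agent that lowered CDX1, or whether a line was a clone or a pool.

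When amino acids run short, uncharged tRNA activates the kinase GCN2, which phosphorylates the translation factor eIF2. General protein synthesis then slows while the ATF4 message is translated more, so the ATF4 mRNA level does not give the amount of ATF4 protein. ATF4 pairs with C/EBP proteins on composite DNA elements and raises genes that import, make and charge amino acids. The kinases PERK, PKR and HRI reach ATF4 by the same step from stress of the endoplasmic reticulum, viral RNA and haem or mitochondrial stress.

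Levels are RMA values in log2 units, where a difference of 1 is 2-fold. A gene was measured where the brighter of the arrays compared stood at 6 or more. This level lies under the median probe set of each array, 7.04 to 7.06, so a measured gene is not thereby shown to be expressed. The leukocyte gene CD3E, for one, passed it at 7.76 to 8.07. The words "rose" and "fell" are kept for genes that were measured and moved by 2-fold or more. With 1 array per group there is no spread between replicates and no p-value, and precision is limited by the number of arrays. Within a pair the 18 spike-in control probe sets differed by up to 0.35 in HCT116 and 0.17 in LS174T. All 7 epithelial markers listed (EPCAM, CDH1, KRT8, KRT18, KRT19, CDX2 and VIL1) were measured on each array. None changed in the HCT116 pair. In the LS174T pair all 7 lay below 0, with a median of -0.54, and KRT8 fell by 1.49 and KRT19 by 1.69. Averaged over probe sets KRT19 was at -0.75, under 2-fold. The part of these markers in the results below was not tested. Of the markers of other cell types, 0 of 5 measured fibroblast genes, 0 of 3 leukocyte genes and 0 of 2 endothelial genes changed in either pair. The CDX1 probe set read 8.21 and 8.24 in the HCT116 pair, control first, and 10.46 and 9.06 in the LS174T pair. The rise that the HCT116 label names was thus not seen by this probe set, and the text writes "the array labelled HCT116-CDX1" for that reason. KRT20, the keratin gene the series asked about, rose by 3.03 there and fell by 2.70 in the LS174T pair, to a level under 6.

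The composite element that ATF4 and C/EBP proteins bind was searched in RefSeq promoters to show which of these genes carry it close to their start. Promoter windows of build GRCh38.p14, from 250 bases before the start to 50 after it, were found for 34 of the 40 genes. The motif searched was TGATGNAA on both strands, which reads TTNCATCA on the opposite strand. It was present in 11 of 54 windows of these genes (20.4%) and in 1270 of 35116 windows of all genes (3.62%). By gene, 11 of 34 held it in some window (32.4%), against 4.46% of the 27305 genes in the table. The genes were listed as known ATF4 targets, so a share above that of all genes could follow from the choice alone. A match is a run of letters and not a shown binding site. A gene without a match may still carry the element outside these windows or in another spelling. Of the 11 matches, 7 lay wholly before the start and 4 reached it or lay after it. The 11 windows below run 5′ to 3′ on the strand of the gene, with the motif in capitals and up to 10 bases on each side.

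CHAC1 (chr15:40953252-40953279, plus strand): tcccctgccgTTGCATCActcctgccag
ASNS (chr7:97872459-97872486, minus strand): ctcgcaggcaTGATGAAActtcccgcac
SLC1A4 (chr2:64989382-64989409, plus strand): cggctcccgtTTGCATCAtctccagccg
SLC7A1 (chr13:29595664-29595691, minus strand): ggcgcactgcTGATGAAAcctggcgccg
AARS1 (chr16:70289676-70289703, minus strand): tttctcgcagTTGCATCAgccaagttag
SLC3A2 (chr11:62881726-62881748, plus strand): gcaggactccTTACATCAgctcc
CEBPG (chr19:33374061-33374088, plus strand): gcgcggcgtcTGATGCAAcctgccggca
GARS1 (chr7:30594835-30594862, plus strand): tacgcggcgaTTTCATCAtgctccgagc
SLC1A5 (chr19:46784894-46784921, minus strand): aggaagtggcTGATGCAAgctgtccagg
ATF3 (chr1:212565206-212565233, plus strand): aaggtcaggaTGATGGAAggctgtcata
NARS1 (chr18:57621805-57621832, minus strand): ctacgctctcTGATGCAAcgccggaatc

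Distances are counted from the first transcribed base. In CHAC1, which encodes a glutathione-degrading enzyme, the motif began at position -209, and in ASNS, the asparagine synthetase gene, at position -68. These 2 genes had the largest differences on the array labelled HCT116-CDX1 among the 11, and their 250 upstream bases are given whole.

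CHAC1 (chr15:40953221-40953470, plus strand): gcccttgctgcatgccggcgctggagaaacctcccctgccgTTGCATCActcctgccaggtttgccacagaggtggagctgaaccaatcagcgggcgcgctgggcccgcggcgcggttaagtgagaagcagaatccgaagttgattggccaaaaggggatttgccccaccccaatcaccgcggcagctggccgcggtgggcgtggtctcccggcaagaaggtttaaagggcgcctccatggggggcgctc
ASNS (chr7:97872409-97872658, minus strand): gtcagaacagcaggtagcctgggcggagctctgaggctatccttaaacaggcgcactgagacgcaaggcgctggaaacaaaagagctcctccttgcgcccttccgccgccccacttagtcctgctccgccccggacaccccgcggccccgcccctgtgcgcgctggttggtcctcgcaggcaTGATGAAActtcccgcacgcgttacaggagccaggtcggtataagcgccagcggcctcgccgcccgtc

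The HCT116 pair addressed, by its labels, what happens to expression when CDX1 is added to this line. Of the 38 measured genes of the response, 10 rose and 0 fell, beside 0.916% of all measured genes that rose and 0.97% that fell. The other 28 differed by less than 2-fold. CHAC1, SLC7A11, PCK2, ASNS, DDIT4, PHGDH, SLC1A4, TRIB3, SLC7A1 and DDIT3 were the genes that rose. The difference was above 0 for 36 of 38, beside 49% of all measured genes. The median difference was 0.73, and that of all measured genes was -0.01. The shares of all measured genes given here also stand beside the HCT116 counts by group and list below. The central 95% of all gene differences ran from -0.78 to 0.65, and 21 of the 38 lay above that range. As the mean of each gene's probe sets the median was 0.70, and 10 genes rose again, of which 8 were the same.

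In LS174T-siCDX1 the same genes showed no shared direction against LS174T-siVec. Of 38 measured, 1 rose, the cystathionine beta-synthase gene CBS, and 0 fell, beside 0.598% and 1.25% of all measured genes. The median difference was 0.01, with 21 genes above 0 and 17 below, and the share above 0 among all measured genes was 48.8%. These shares also stand beside the LS174T counts by group and list below. The size of the difference was larger in the HCT116 pair than in the LS174T pair for 34 of 38 genes (89.5%), as it was for 58.9% of all genes measured in both. The median size was 0.73 in HCT116 and 0.10 in LS174T, and over all genes 0.18 and 0.13. Whether CDX1 was part of either pattern was not tested, since each label stood on 1 array.

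**Figure D1:**
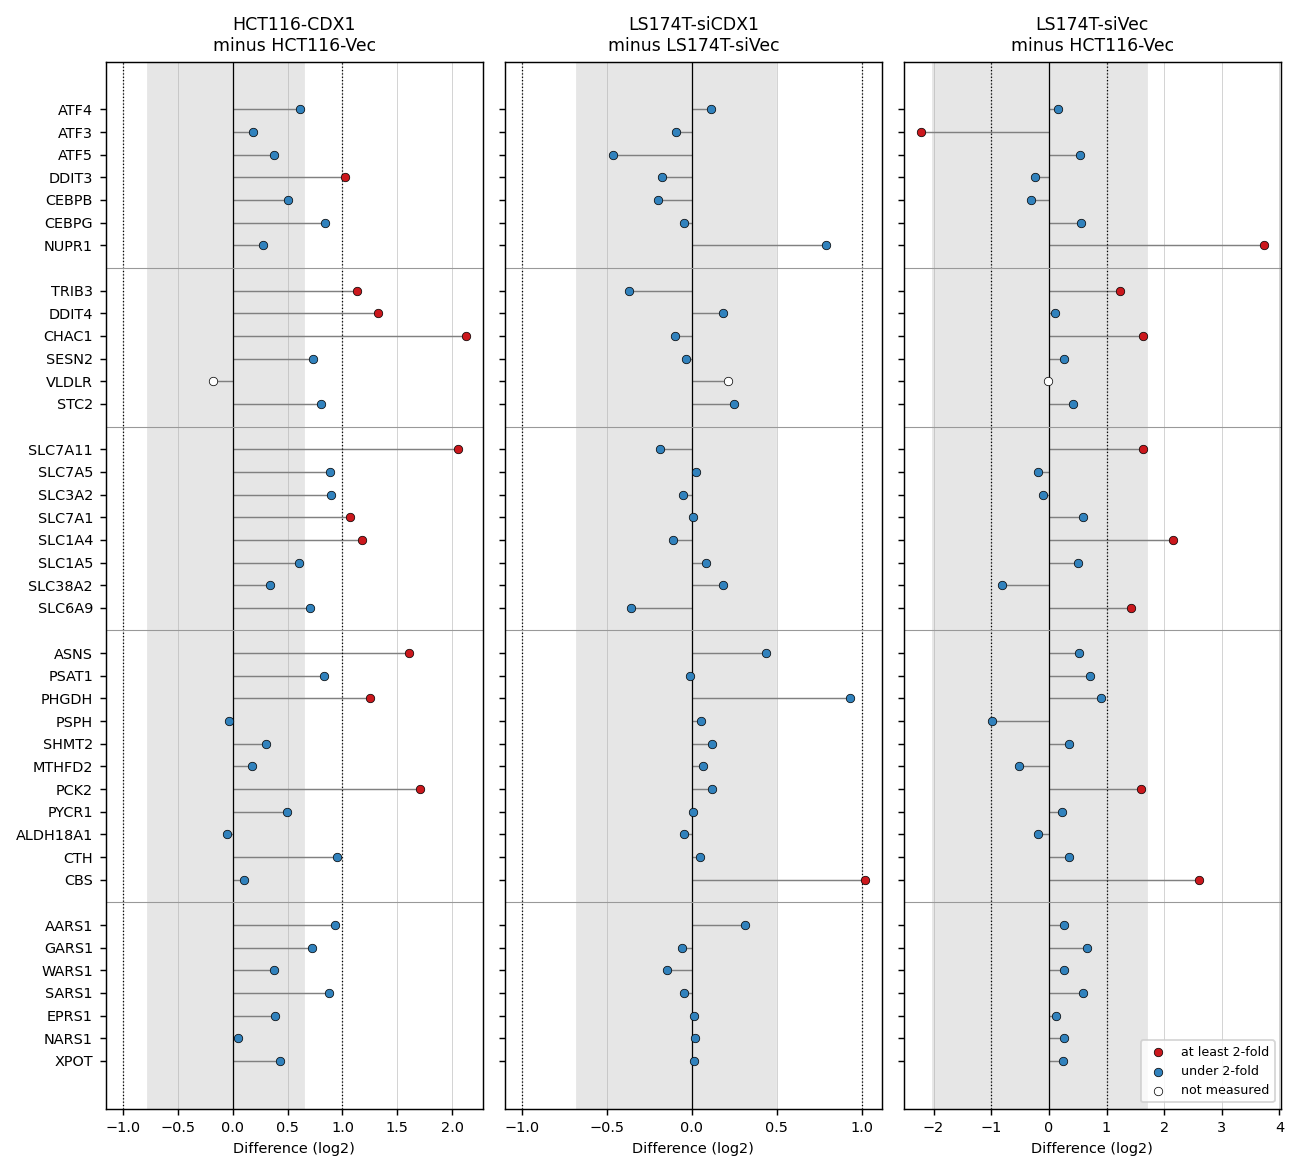
Differences on the log2 scale for 39 genes, grouped from top to bottom as regulators, feedback and stress effectors, transporters, enzymes and tRNA genes, in the HCT116 pair, the LS174T pair and between the vector arrays. Red points differed at least 2-fold (dotted lines at 1 and -1), open points were not measured, and grey bands hold the central 95% of all measured genes; in the HCT116 pair 36 of 38 measured points lie right of 0 and in the LS174T pair 21.

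Of the 7 regulators, all above 0 in the HCT116 pair, DDIT3 rose there. ATF4 itself, read by 1 probe set, stood at 12.52 in HCT116-Vec and 13.14 on the array labelled HCT116-CDX1, and at 12.69 and 12.80 in LS174T-siVec and LS174T-siCDX1. Its difference was 0.62 in the HCT116 pair and 0.11 in the LS174T pair, both under 2-fold. The HCT116-Vec level was the lowest of the 4 and that of the array labelled HCT116-CDX1 the highest.

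DDIT3 encodes CHOP, a C/EBP family factor linked to cell death under lasting stress. It stood at 8.75, 9.78, 8.52 and 8.34 in HCT116-Vec, the array labelled HCT116-CDX1, LS174T-siVec and LS174T-siCDX1, and rose by 1.03 in the HCT116 pair. The array labelled HCT116-CDX1 stood apart from the other three, which lay within a span of less than 0.5. CEBPG, an ATF4 partner, read 9.32 and 10.16 in the HCT116 pair, a difference of 0.84, and 9.88 and 9.84 in the LS174T pair. CEBPB, a further C/EBP factor, differed by 0.50 and ATF5, a relative of ATF4, by 0.38 in HCT116; in LS174T they differed by -0.20 and -0.47.

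ATF3, a stress-induced repressor and itself an ATF4 target, did not follow DDIT3. It read 10.94 in HCT116-Vec, 11.13 on the array labelled HCT116-CDX1, 8.72 in LS174T-siVec and 8.63 in LS174T-siCDX1. Its 3 probe sets differed by 0.18, 0.11 and -0.43 in the HCT116 pair. NUPR1, a small stress-induced chromatin protein gene, read 6.84, 7.12, 10.57 and 11.36 on the same 4 arrays. For both ATF3 and NUPR1 the arrays divided by cell line and not by label, ATF3 being high in HCT116 and NUPR1 in LS174T. The median of the 7 regulators was 0.50 in HCT116 and -0.09 in LS174T.

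Feedback and stress effectors had the highest group median in the HCT116 pair, at 1.13 over 5 measured genes, of which 3 rose. CHAC1, which breaks down glutathione and is a late product of the ATF4 and CHOP branch, read 8.15 in HCT116-Vec, 10.27 on the array labelled HCT116-CDX1, 9.79 in LS174T-siVec and 9.69 in LS174T-siCDX1. It rose by 2.12, or 4.35-fold, in HCT116 and differed by -0.10 in LS174T. HCT116-Vec was the low array, and the other three lay within 0.6 of one another.

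DDIT4, which encodes the mTORC1 inhibitor REDD1, read 11.10, 12.42, 11.21 and 11.39 in the order HCT116-Vec, array labelled HCT116-CDX1, LS174T-siVec, LS174T-siCDX1, and rose by 1.32. Here the array labelled HCT116-CDX1 was the high one and the other three lay together. TRIB3, a pseudokinase that restrains ATF4, read 10.60, 11.73, 11.82 and 11.45, with HCT116-Vec again low. It rose by 1.13 in HCT116, and its second probe set gave 1.31. In LS174T the same probe sets differed by -0.37 and -0.67. SESN2, a leucine sensor that limits mTORC1, and STC2, a secreted glycoprotein gene, differed by 0.73 and 0.81 in HCT116, and each had a second probe set past 2-fold, at 1.17 and 1.15. VLDLR, a lipoprotein receptor gene and ATF4 target, read 4.69 to 5.06 and was not measured.

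**Figure D2:**
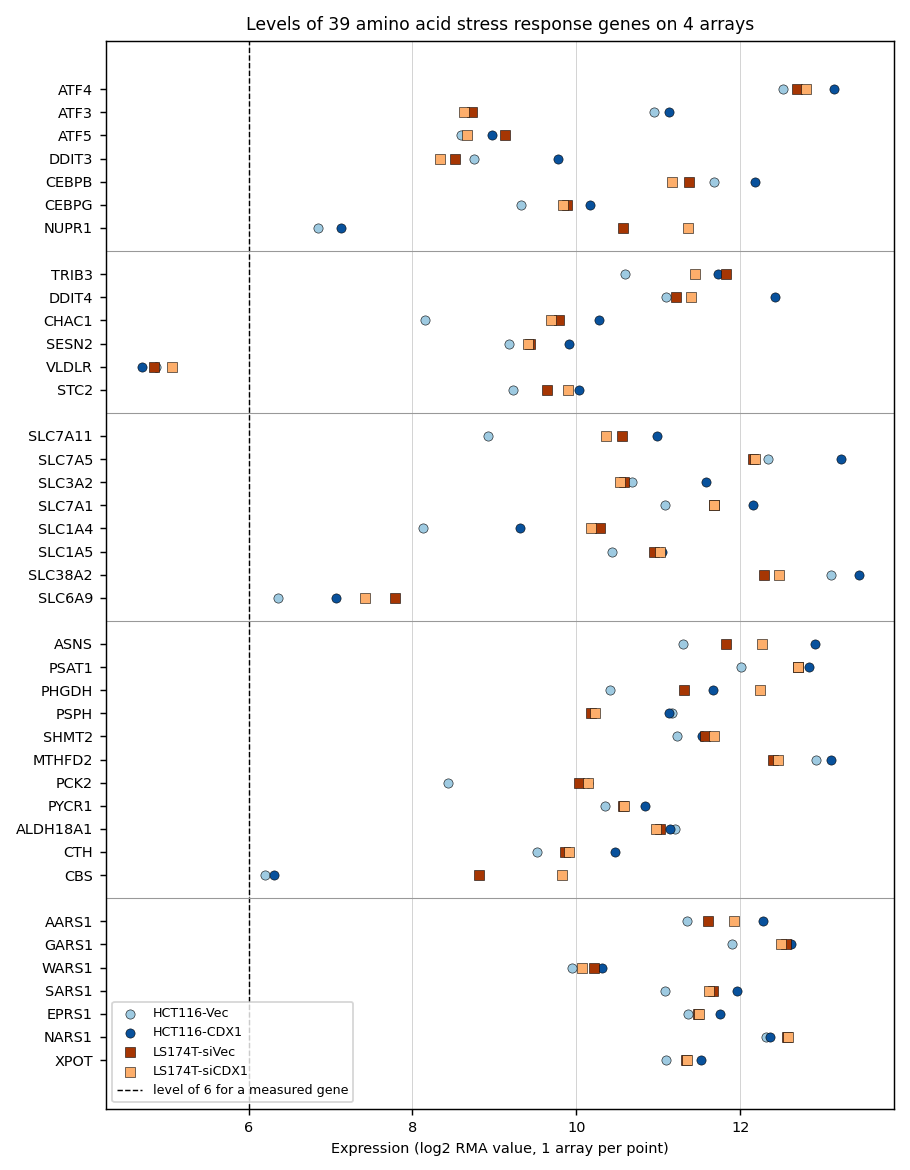
Expression on the log2 scale (RMA value, 1 array per point) of 39 genes, blue circles for HCT116 and orange squares for LS174T arrays, in the same groups from top to bottom; the dashed line is the level of 6 for a measured gene. The pale blue HCT116-Vec point is the lowest for 29 of 38 measured genes and the dark blue point of the array labelled HCT116-CDX1 the highest for 26; where points coincide, as for PCK2, the later-drawn LS174T point covers the other.

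All 8 amino acid transporter genes were above 0 in the HCT116 pair, and 3 rose, with a group median of 0.89. SLC7A11, the cystine and glutamate exchanger that supplies glutathione synthesis, read 8.92 in HCT116-Vec, 10.98 on the array labelled HCT116-CDX1, 10.55 in LS174T-siVec and 10.36 in LS174T-siCDX1. It rose by 2.06, or 4.16-fold, and its 3 probe sets lay together at 2.06, 2.03 and 2.00. In LS174T the difference was -0.19. The low array was HCT116-Vec, as for CHAC1.

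SLC1A4, a carrier of alanine, serine and cysteine, read 8.13, 9.31, 10.28 and 10.17 in HCT116-Vec, the array labelled HCT116-CDX1, LS174T-siVec and LS174T-siCDX1. It rose by 1.18 in HCT116, yet both HCT116 arrays stayed under both LS174T arrays. Its 5 probe sets ranged from 0.25 to 1.77, with a mean of 0.93, under 2-fold. SLC7A1, the cationic amino acid carrier, read 11.09, 12.16, 11.67 and 11.68 and rose by 1.07. Its 5 probe sets ranged from 0.03 to 1.18, and their mean of 0.70 was again under 2-fold.

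The transporters under 2-fold in HCT116 ranged from 0.34 to 0.90. SLC7A5 and SLC3A2, which form the heterodimer that imports leucine and other large neutral amino acids, differed by 0.89 and 0.90 in HCT116 and by 0.02 and -0.05 in LS174T. SLC1A5, a glutamine carrier, differed by 0.60, the glycine carrier gene SLC6A9 by 0.70, and SLC38A2, a small neutral amino acid carrier, by 0.34. Over all 8 transporters the LS174T median was -0.02, with a range from -0.36 to 0.18.

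Of 11 measured enzymes of amino acid and folate-linked metabolism, 3 rose in HCT116 and 9 were above 0, with a median of 0.49. PCK2, the mitochondrial PEP carboxykinase, read 8.43 in HCT116-Vec, 10.14 on the array labelled HCT116-CDX1, 10.03 in LS174T-siVec and 10.15 in LS174T-siCDX1. It rose by 1.71 in HCT116. HCT116-Vec was the low array, and the other three lay within 0.2. ASNS read 11.31, 12.91, 11.83 and 12.26 on the same arrays and rose by 1.61. Its second probe set stayed under 6 on all 4 arrays, from 4.70 to 5.41, and was not measured; it enters the mean of both, which was barely past 2-fold. Among the genes that rose, the probe sets used for ASNS, DDIT4 and SLC7A1 carry a mark for sequence shared between transcripts (a name ending in _s_at). That of SLC1A4 carries a further mark for shared sequence (_x_at). Without shared probe sets SLC7A1 was at 0.62 and SLC1A4 at 0.25 in HCT116, both under 2-fold. ASNS and DDIT4 were then not measured.

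Serine synthesis runs through PHGDH, PSAT1 and PSPH in that order. PHGDH read 10.42 in HCT116-Vec, 11.66 on the array labelled HCT116-CDX1, 11.31 in LS174T-siVec and 12.24 in LS174T-siCDX1. It rose by 1.25 in HCT116 and differed by 0.93 in LS174T, so the modified array was the higher of each pair. PSAT1 differed by 0.83 in HCT116, with 1.23 for its second probe set, and by -0.01 in LS174T. PSPH, the last step, differed by -0.03 and 0.05, and the other probe set measured in HCT116 gave 0.28 there; the third was under 6.

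The mitochondrial folate enzymes listed were close to level by their brightest probe sets. SHMT2 differed by 0.30 and MTHFD2 by 0.18 in HCT116, although the second probe set of MTHFD2 gave 1.14. ALDH18A1 and PYCR1, steps of proline synthesis, differed by -0.06 and 0.49. CTH and CBS make cysteine by transsulfuration. CTH differed by 0.95 in HCT116 and by 0.04 in LS174T. CBS read 6.20 and 6.31 in the HCT116 pair, near the level of 6, and 8.81 and 9.83 in the LS174T pair, where it rose by 1.02. A second CBS probe set gave 1.03 there and the third 0.17, and the mean of the 3 was 0.74, under 2-fold. With equal array medians the CBS difference was 0.99, so the call was lost there too.

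None of the 7 tRNA charging and export genes rose, and all 7 were above 0 in HCT116, with a median of 0.43. The alanine, serine and glycine synthetase genes AARS1, SARS1 and GARS1 differed by 0.93, 0.88 and 0.72. EPRS1 and WARS1 differed by 0.39 and 0.38, the tRNA export gene XPOT by 0.43, and NARS1, which charges tRNA with asparagine, by 0.05. In LS174T the 7 ranged from -0.14 to 0.31, with AARS1 highest.

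**Figure D3:**
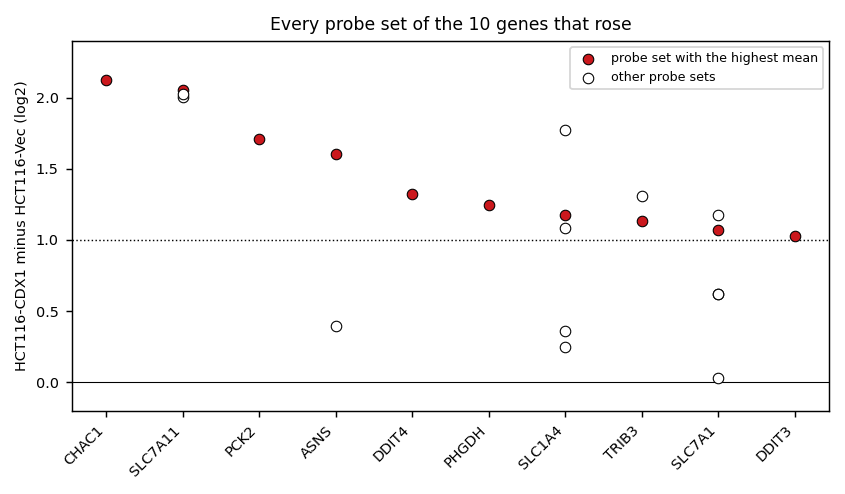
Difference of the array labelled HCT116-CDX1 from HCT116-Vec (log2) for each probe set of the 10 genes that rose, with the probe set of highest mean in red and the others open; the dotted line marks 2-fold. All probe sets lie above 0, the open point of ASNS was under a level of 6 on all 4 arrays, those of SLC7A11 lie together near 2, and those of SLC1A4 and SLC7A1 are spread from 0.25 to 1.77 and from 0.03 to 1.18.

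Of the 10 genes that rose in HCT116, 5 had several probe sets, which had the same sign in all 5 genes. In 4 of them another probe set was also past 2-fold; the fifth was ASNS, whose other probe set was not measured. The promoter motif was found both in genes that rose and in genes that did not. Of 11 measured genes with it 4 rose, CHAC1, ASNS, SLC1A4 and SLC7A1, and of 22 without it in the windows searched 5 rose. The median difference in the HCT116 pair was 0.90 with the motif and 0.72 without it, and the ranges overlapped, from 0.05 to 2.12 and from -0.06 to 1.71. The tenth gene that rose, SLC7A11, had no window in the table.

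The vector arrays were compared to see how the lines differ in these genes at baseline. LS174T-siVec and HCT116-Vec are also the controls of the pairs above, so each difference here shares an array with those. Of 38 genes 8 were at least 2-fold higher in LS174T-siVec and 1 lower, beside 6.03% and 7.33% of all measured genes, and the median was 0.34 against 0.01 for all. The difference was above 0 for 29 of 38, beside 50.8% of all measured genes. NUPR1 was higher by 3.73, CBS by 2.61, SLC1A4 by 2.15, CHAC1 by 1.64, SLC7A11 by 1.63, PCK2 by 1.60, SLC6A9 by 1.42 and TRIB3 by 1.23. SLC6A9 read 6.36 in HCT116-Vec, 7.07 on the array labelled HCT116-CDX1, 7.78 in LS174T-siVec and 7.42 in LS174T-siCDX1. ATF3 was the gene lower in LS174T-siVec, by -2.22, and all 3 of its probe sets were below 0. As the mean of all probe sets the same 8 and the same 1 differed at least 2-fold. Without shared probe sets 5 of 25 genes were higher, CBS, CHAC1, PCK2, SLC7A11 and TRIB3, beside 5.81% of all measured genes. NUPR1 and SLC6A9, each read by 1 shared probe set, were then not measured, and SLC1A4 was under 2-fold.

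The order of the 4 arrays was counted for each gene. HCT116-Vec was the lowest array for 29 of 38 genes (76.3%), beside 25% of all genes at 6 or more on some array. The array labelled HCT116-CDX1 was the highest for 26 (68.4%), beside 25.3% of all such genes and the lowest for 0, beside 28.8%. LS174T-siVec was highest for 4 and LS174T-siCDX1 for 6, beside 26% and 23.5% of all such genes. For CHAC1, SLC7A11, PCK2 and TRIB3, HCT116-Vec stood below the other three arrays by more than 0.8. Among the other genes that differed at least 2-fold between the vector arrays, for CBS, NUPR1, SLC1A4 and SLC6A9 both HCT116 arrays stood under both LS174T arrays, and for ATF3 both stood over them.

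The machinery upstream of ATF4 was read from 18 genes for eIF2 kinases and their regulators, eIF2 and eIF2B subunits and eIF2 phosphatase subunits. In HCT116 0 of them rose and 0 fell, 8 were above 0 and the median was -0.08. EIF2AK4, the GCN2 gene, differed by -0.25 and EIF2AK3, the PERK gene, by 0.16. The genes of 4 of the 5 subunits of eIF2B, the exchange factor that phosphorylated eIF2 blocks, differed by -0.51 to -0.67, and EIF2B5 by -0.04. OMA1, a mitochondrial protease that relays stress to HRI, differed by -0.98. In LS174T-siCDX1 EIF2AK2, the interferon-induced PKR gene, rose from 9.21 to 10.28, by 1.07, or 0.81 averaged over probe sets, under 2-fold.

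Further ATF4 targets outside the 40 genes were read from a list of 20, of which 17 were measured in HCT116. There 3 rose and 0 fell, beside 0.916% and 0.97% of all measured genes. The median was 0.25, and 12 lay above 0, beside 49% of all measured genes. NIBAN1, a stress-induced regulator of translation, read 7.09 and 8.94 in the HCT116 pair and rose by 1.85. JDP2, an AP-1 repressor, rose by 1.56 and VEGFA, the angiogenic factor gene, by 1.11. Averaged over probe sets, NIBAN1 and VEGFA were at 1.04 and 1.06 and JDP2 at 0.84. In LS174T 0 of 17 changed, beside 0.598% of all measured genes that rose and 1.25% that fell, and JDP2 was at -0.78.

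Synthetase and folate genes outside the set gave a frame for the tRNA and enzyme groups. The 11 other cytosolic synthetase genes had a median of -0.04 in HCT116, with 5 above 0, led by CARS1 at 0.87 and TARS1 at 0.72. The 15 mitochondrial synthetase genes had a median of -0.16, with 2 above 0, and FARS2 fell by 1.02, or by 0.48 averaged over probe sets. The 9 other folate and glycine genes had a median of -0.22, and MTHFD2L, a relative of MTHFD2, fell by 1.21, or by 0.19 averaged over its 8 probe sets.

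Neighbouring stress responses were read in the same way on the array labelled HCT116-CDX1. In the list of endoplasmic reticulum chaperone genes under ATF6 and XBP1, 0 of 16 rose and 1 fell, SDF2L1 by 1.23. Of all measured genes 0.916% rose and 0.97% fell there. The chaperone median was 0.28, beside 0.25 for the further ATF4 targets, and 11 lay above 0, beside 49% of all measured genes. HERPUD1, which also has an ATF4 input, was at 0.86, or 0.32 averaged over probe sets. In LS174T-siCDX1 all 16 lay below 0, from -0.75 to -0.01, with a median of -0.185. Of these 1 lay below the central 95% of all measured genes, and 48.8% of all measured genes lay above 0 in that pair. All 10 measured NRF2 targets, genes of the antioxidant response, lay below 0 in HCT116, with a median of -0.43, and GCLM, a subunit of glutathione synthesis, fell by 1.74. SLC7A11, which NRF2 also controls, rose on that array. In LS174T 9 of 10 NRF2 targets lay below 0 and 0 changed. Differences between these lists were not tested.

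**Figure D4:**
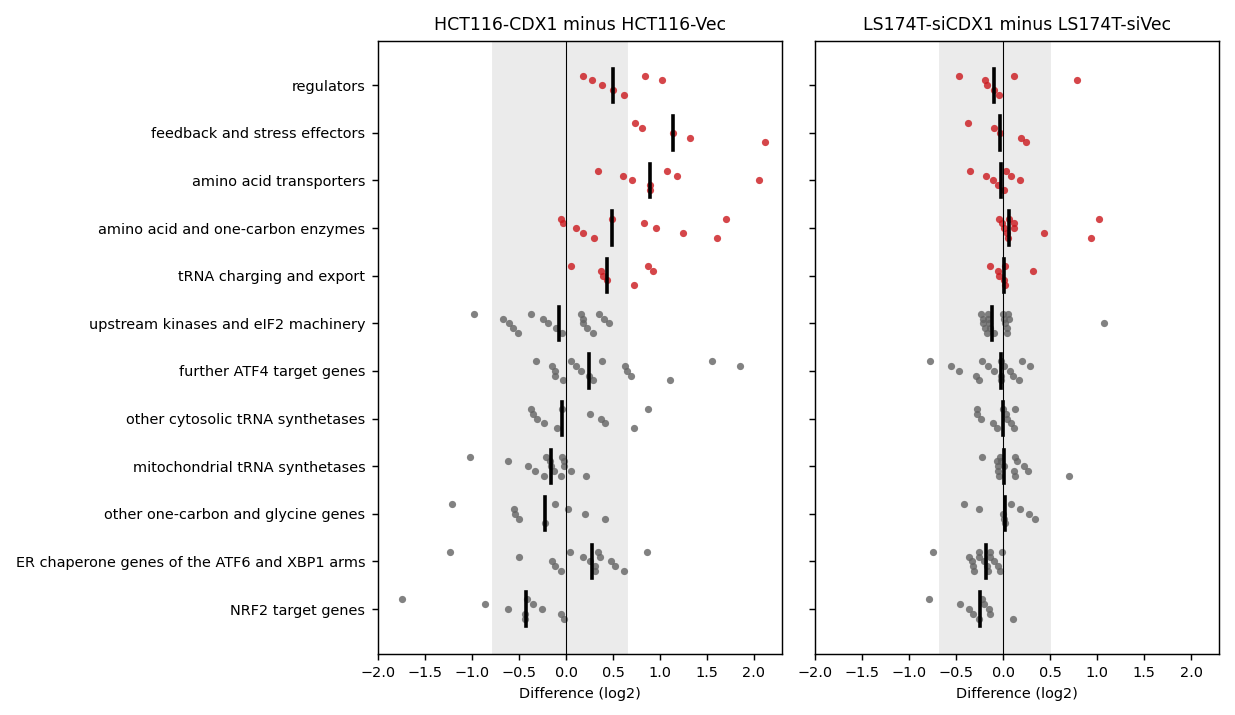
Differences on the log2 scale of the measured genes of each list in the HCT116 pair (left) and the LS174T pair (right), red for the 5 groups of the ATF4 response and grey for other lists, with a black bar at the list median and a grey band for the central 95% of all measured genes. In HCT116 the red medians run from 0.43 to 1.13 and the grey ones from -0.43 to 0.28. The grey lists include the further ATF4 targets, whose HCT116 median of 0.25 lies under the 0.28 of the chaperone list. In LS174T the red medians lie between -0.09 and 0.06.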

How the data were processed

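The authors deposited log2 expression for 54675 probe sets on 4 arrays, made with RMA (background subtraction, equalised array distributions, a summary per probe set), per the submitters' processing notes; its version was not given in the sources used here. Per the labels' protocols, biotinylated cRNA was made from 2 µg of total RNA. The values were not changed further. Samples were grouped by their titles. Gene names came from the platform annotation: 41097 probe sets had 1 gene, 1801 several and 11777 none listed. Symbols were updated by gene identifier against RefSeq of assembly GRCh38.p14, where 41043 matched and 0 changed. Where a gene had several probe sets, the brightest by mean level stood for it. Pearson r over probe sets was 0.988 and 0.989 within the pairs and 0.935 between the vector arrays.

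Differences were taken in 3 comparisons of 2 arrays, with a floor of 6 and a threshold of 1, and no test. Python 3.11.15, numpy 2.4.6, pandas 2.3.3 and statsmodels 0.14.6 were used. In a check on simulated data, with noise set from the HCT116 pair, only the mean size of added changes had to be recovered. It does not show how often a 2-fold call on these arrays is right. Values on all arrays were planned for genes changed in any comparison and for ATF4, ATF3, DDIT3, ASNS, CHAC1, SLC7A11 and TRIB3; of other lists, up to 4 changed genes were to be named. Further genes were named after their values were seen. The members and lists were chosen with earlier results of these data known. The alternatives were the mean of probe sets, no shared probe sets (_x_at, _s_at), no floor, a floor of 7, levels under 6 set to 6, quantile normalization, equal medians, a loess (span 0.3) removed, and 1.5-fold and 3-fold thresholds.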

Additional observations from a re-analysis of the deposited data

Results flagged for a closer look

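With each pair turned so that the array with more CDX1 by its label came first, 2 genes changed in HCT116 and differed the other way in LS174T by more than 0.35, the largest spike-in difference of either pair. PHGDH was 1.25 higher on the array labelled HCT116-CDX1 than in HCT116-Vec, and 0.93 higher in LS174T-siCDX1 than in LS174T-siVec. ASNS was 1.61 higher on the array labelled HCT116-CDX1, and 0.44 higher in LS174T-siCDX1, by the probe set that was measured. The opposition was not tested, since each group held 1 array.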

How the results depend on the processing

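No paired analysis was possible because each group held 1 array and no test was made. In the HCT116 pair 10 to 13 genes rose under quantile normalization, equal medians, the loess, the mean of probe sets and the changed floors. Those floors were none, 7, and levels under 6 set to 6. Of all measured genes 0.685% to 1.06% rose in these settings. The same 10 genes rose in each except the mean of probe sets, which kept 8. Without shared probe sets 25 genes were measured, and the median was 0.62. Of the 25, 7 rose, 6 of them among the 10, beside 0.863% of all measured genes. At 1.5-fold 23 rose, beside 3.37% of all measured genes. At 3-fold 4 rose, CHAC1, SLC7A11, PCK2 and ASNS, beside 0.254%. In the LS174T pair 0 rose with the mean of probe sets, equal medians and at 3-fold, beside 0.504%, 0.586% and 0.26% of all measured genes. After quantile normalization and after the loess 2 rose (PHGDH with CBS), beside 0.634% and 0.61%. At 1.5-fold 3 rose, beside 1.72%. The median was 0.10 after quantile normalization. Between the vector arrays 5 of 25 were higher without shared probe sets, beside 5.81% of all measured genes, and SLC1A4 was at 0.35. At 1.5-fold 12 of 38 were higher and 3 lower, beside 12.2% and 14.3%. For single named genes, 317 of 347 values under another setting moved by less than the standard deviation of the spike-in differences, and 30 moved by more. Many of these values could not move, so the count does not measure stability. A changed floor leaves a named gene's difference as it was, and so does the mean for a gene with 1 probe set. Of the differences of 2-fold or more, 0 changed sign. The spread between cultures could not be examined with 1 array per group.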

Other observations

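A probe set annotated to PHGDH together with other genes was left out of the values above. It read 11.16 in HCT116-Vec, 10.96 on the array labelled HCT116-CDX1, 11.39 in LS174T-siVec and 11.45 in LS174T-siCDX1, so it did not show the rise of the PHGDH probe set proper.

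Several genes of the response differed between their own probe sets. Between the vector arrays the 3 probe sets of PSPH gave -0.98, 0.49 and 1.33, the last at 4.73 and 6.07. In the HCT116 pair the 2 probe sets of SARS1 gave 0.88 and 1.20, and those of PSAT1 0.83 and 1.23. All 4 probe sets of ATF5, by contrast, were below 0 in the LS174T pair, from -0.54 to -0.27.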
